A study of Homo sapiens with 12 samples.

Results

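Manassantin, a lignan from Saururus plants that the series' design text gives as manassantin A, was compared with its vehicle in MDA-MB-231 cells, an established human line from a triple-negative breast cancer. The comparison took the 3 arrays titled as treated with manassantin and the 3 titled as treated with DMSO, which are 6 of the 12 arrays of the series. The other 6 arrays hold cells given rotenone, an inhibitor of respiratory complex I, or a cardiac glycoside called digoxin in the sample titles and digitoxin in the design text. All cells were grown in DMEM with fetal bovine serum and antibiotics, and exposure lasted 24 hours. The labels give no dose and no oxygen level, and all groups came from 1 cell line. Each gene was read from the brightest of its probe sets among those annotated to exactly 1 gene symbol, which left 11963 genes. Nothing in the labels says that the replicates were separate cultures, so every p-value here measures only the spread between these arrays, which may be technical.

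Hypoxia-inducible factors are pairs of an oxygen-labile alpha subunit, encoded by HIF1A or EPAS1, and the stable partner ARNT. They bind short DNA sites with an ACGTG or GCGTG core and switch on genes for glucose uptake, glycolysis, collagen modification and mitophagy. Manassantins are known as blockers of signalling by these factors, and the title of the series ties manassantin A to hypoxia, Hsp90 and chaperone-mediated autophagy, in which LAMP2 at the lysosomal membrane takes up proteins carried there by chaperones.

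Most genes listed as markers of the labelled line were bright, while luminal and epithelial markers were mixed. Of 11 genes listed as high in MDA-MB-231, 10 were bright, from the mesenchymal filament VIM at a DMSO mean of 13.24 log2 units down to TGFBI at 9.80. SPARC alone was dim at 3.86, and its place in the list was not checked against other data on the line. The luminal genes ESR1, PGR, FOXA1 and CDH1 stood at 6.08, 2.32, 3.16 and 3.55, while KRT19 stood at 10.54, XBP1 at 8.80, EPCAM at 8.03, GATA3 at 7.99 and ERBB2 at 7.96. Of the 11 luminal and epithelial genes measured, 4 were dim. Of 4 blood cell genes 3 were dim, PTPRC the lowest at 2.92, and HBB stood at 5.98. Array medians lay between 5.88 and 5.995 log2 units, and the dimmest 40 percent of genes had means under 5.75.

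Few genes passed the test between manassantin and DMSO, and each called gene differed by less than 2-fold. With 3 arrays against 3, the number of calls is not the number of genes that changed. At an adjusted p under 0.05 (limma on all 12 arrays, Benjamini-Hochberg over all 11963 genes), 102 genes were higher and 14 were lower, which is 0.97% of the genes in all, 0.853% higher and 0.117% lower. At an unadjusted p under 0.05 there were 1236 higher and 660 lower, or 10.3% and 5.52%. The difference lay above 0 in 52.5% of all genes. These shares apply to every count below of list members in this fit. None of the 116 called genes passed 2-fold and 5 passed 1.5-fold. The median difference of the called genes was 0.31 log2 units among those higher, a 1.24-fold rise, and -0.34 among those lower. On all 116 the 3 manassantin arrays lay entirely to one side of the 3 DMSO arrays, which also held for 13.9% of all genes on the higher side and 8.45% on the lower side.

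The calls leaned on the spread pooled over all 12 arrays. With only the 6 manassantin and DMSO arrays, 4 genes were called (SCG5, ALAS1, CLMN and TXNIP), and leaving out any 1 of the 6 arrays left between 7 and 25 genes, the count for each array being given with the processing choices at the end. TXNIP, ALAS1, CYP1B1, SCG5, SPAG4, DENND1A and CDA were called in every one of these 6 fits and 84 genes in none of them. All 116 kept their direction in all 6. With the groups fully separated, leaving out an array cannot reverse a difference, so this was fixed in advance.

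**Figure D1:**
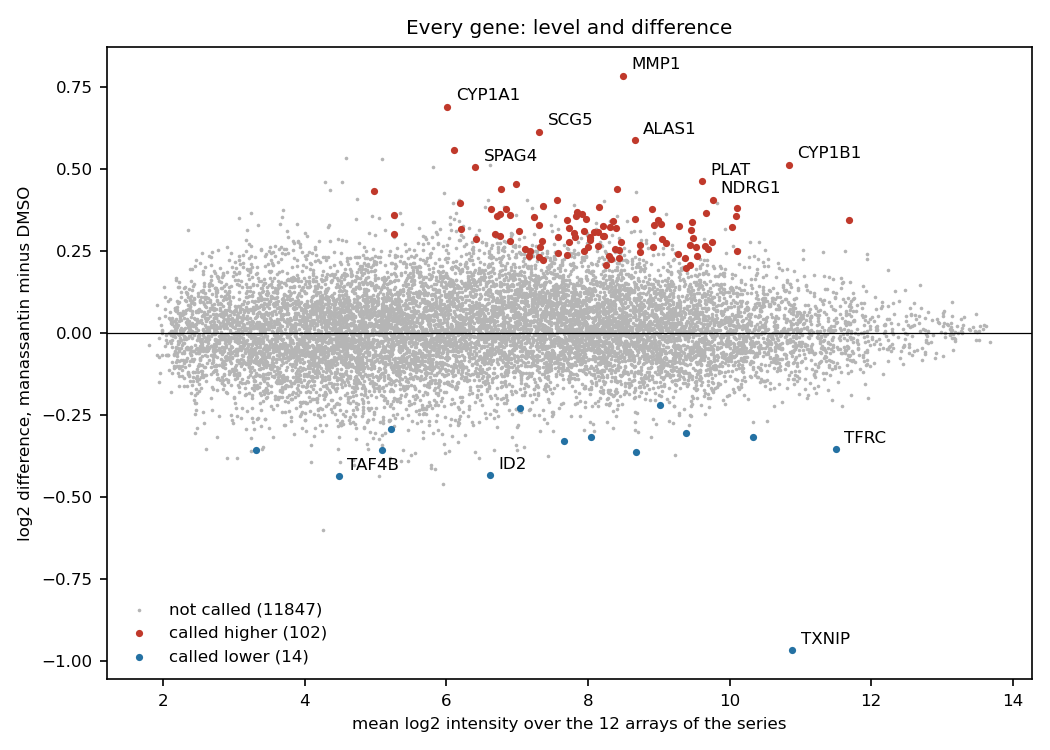
Each point is 1 of the 11963 genes, with its mean log2 intensity over the 12 arrays on the x axis and the log2 difference, manassantin minus DMSO, on the y axis; coloured points are genes with an adjusted p under 0.05. The 102 genes called higher reach 0.78 (MMP1), and TXNIP lies apart from all other genes at -0.97.

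The largest change was the fall of TXNIP, an arrestin-fold protein that restrains glucose uptake and binds thioredoxin. The DMSO arrays read 11.06, 10.94 and 10.91 log2 units and the manassantin arrays 10.05, 9.98 and 9.97. Every manassantin array was lower than every DMSO array. The difference was -0.97 ± 0.053 (SE, n = 3 and 3), a level 1.96-fold lower, with an adjusted p of 7e-06 from limma. The other TXNIP probe sets read -1.08 and -1.004. Of the 12 measured genes of the list of glucose sensors and thioredoxin partners, TXNIP alone was called. The mRNA of MLXIP, the glucose-sensing factor known as MondoA that drives TXNIP, differed by -0.00 with a 95% interval from -0.11 to 0.11.

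TXNIP is known for a carbohydrate response element, a pair of E boxes through which MondoA and ChREBP act. The 250 bases before its start (RefSeq, GRCh38.p14, chr1:145996580-145996829, minus strand) are shown because they hold a match to a relaxed form of that element, CACGNG and CNCGNG with any 5 bases between them, in capitals, from 88 to 72 bases before the start. The form was written with this promoter in view, and was searched on both strands. It lies in the promoters of 0.732% of the 9563 tested genes that have one in the table, and in 3 of the 80 such genes called higher. The match is a description of the sequence.
TXNIP: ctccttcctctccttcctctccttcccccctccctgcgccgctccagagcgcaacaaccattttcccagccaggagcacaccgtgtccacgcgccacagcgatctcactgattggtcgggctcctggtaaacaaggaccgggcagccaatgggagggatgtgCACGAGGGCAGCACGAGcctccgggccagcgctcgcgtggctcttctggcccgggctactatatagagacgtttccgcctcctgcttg

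The aryl hydrocarbon receptor pathway held 3 of the called rises and was otherwise split. This receptor is a ligand-activated partner of ARNT that recognises GCGTG cores and switches on cytochrome P450 genes. Of 10 measured genes of the pathway 3 were called, all higher, against 0.853% of all genes, and the list's median of 0.07 lay near that of all genes, 0.01. The 3 were CYP1A1, CYP1B1 and TIPARP. Over the 10 genes 5 lay above 0 and 5 below. Among the other targets NQO1, a quinone reductase, was at 0.19, and ALDH3A1 and CYP1A2, both dim, were at 0.16 and -0.14, with no call.

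CYP1A1, the classical target of the receptor, read 5.16, 5.38 and 5.21 in DMSO, within the dim range, and 5.70, 6.09 and 6.03 with manassantin. The difference was 0.69 ± 0.10 (SE, n = 3 and 3; adjusted p = 0.0178 from limma), with no overlap between the groups. CYP1B1, a P450 of estrogen and xenobiotic metabolism, read 10.53, 10.52 and 10.64 in DMSO and 11.06, 11.04 and 11.13 with manassantin. It rose by 0.51 ± 0.051 (adjusted p = 0.00156 from limma), and its 3 other probe sets read 0.46, 0.47 and 0.11. TIPARP, a mono-ADP-ribosyltransferase that represses the receptor, went from 9.11, 9.19 and 9.22 to 9.57, 9.50 and 9.55, a rise of 0.37. In all 3 genes the lowest manassantin array was above the highest DMSO array. The mRNA of the receptor itself, AHR, differed by -0.11 with an interval from -0.25 to 0.03, and its groups overlapped.

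The promoters of the receptor's targets that RefSeq's table holds are printed with each GCGTG or ACGTG core in capitals, so that CACGC and CACGT mark a core on the opposite strand. CYP1A1 (chr15:74725529-74725778, minus strand) has a GCGTG 57 to 53 bases before the start and an ACGTG on the opposite strand at 48 to 44. TIPARP (chr3:156674340-156674589, plus strand) has GCGTG on the opposite strand at 208 to 204 and at 142 to 138. GCGTG is found on either strand in 41.7% of the promoters of the tested genes, so a match by itself is common.
CYP1A1: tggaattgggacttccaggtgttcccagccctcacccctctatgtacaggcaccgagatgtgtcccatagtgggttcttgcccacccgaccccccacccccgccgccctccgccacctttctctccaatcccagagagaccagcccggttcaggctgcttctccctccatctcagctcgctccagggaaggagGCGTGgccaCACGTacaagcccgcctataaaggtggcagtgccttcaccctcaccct
TIPARP: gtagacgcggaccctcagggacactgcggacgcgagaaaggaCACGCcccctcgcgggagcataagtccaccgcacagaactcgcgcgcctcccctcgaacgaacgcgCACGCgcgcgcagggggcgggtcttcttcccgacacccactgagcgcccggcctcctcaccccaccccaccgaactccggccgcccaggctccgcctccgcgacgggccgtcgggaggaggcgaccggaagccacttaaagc

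A pair of heme enzymes rose and the transferrin receptor fell. ALAS1, the rate-limiting enzyme of heme synthesis, read 8.47, 8.50 and 8.45 in DMSO and 9.005, 9.10 and 9.08 with manassantin. The groups did not overlap, and the rise was 0.59 ± 0.052 (SE, n = 3 and 3; adjusted p = 0.00074 from limma). BLVRB, a biliverdin reductase that acts after heme is broken down, rose by 0.33 from 8.80, 8.76 and 8.70 to 9.06, 9.13 and 9.05. These were the 2 called genes of the 14 measured for heme synthesis and breakdown, of which 9 lay above 0 and 7 were higher at an unadjusted p under 0.05 (10.3% of all genes were). The list's median was 0.17, or 0.09 when the probe sets of a gene were averaged. UROD, a later enzyme of the pathway, was 0.17 higher without passing (adjusted p = 0.0955, limma).

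Of 14 iron uptake and storage genes, 1 was called. TFRC, the receptor that brings in iron-loaded transferrin, fell by 0.36 log2 units, from 11.59, 11.73 and 11.76 to 11.26, 11.37 and 11.38 (adjusted p = 0.0187 from limma). The groups did not overlap, and the other TFRC probe set read -0.42.

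**Figure D2:**
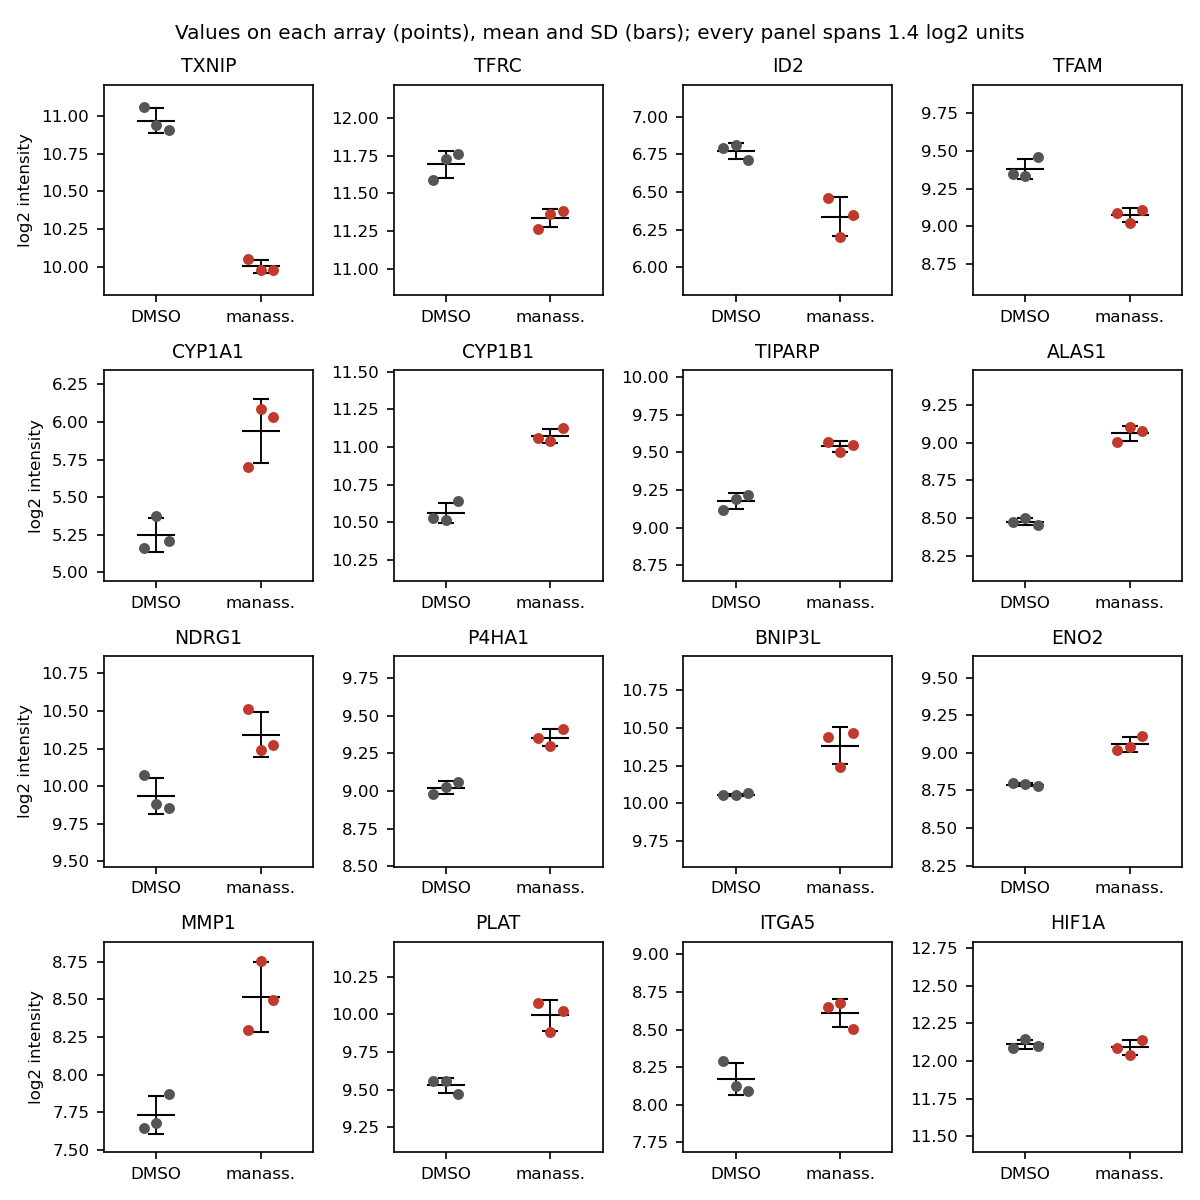
Log2 intensity of 16 genes on each of the 3 DMSO arrays (grey points) and 3 manassantin arrays (red points), with the mean and SD as black bars; every panel spans 1.4 log2 units. TXNIP, TFRC, ID2 and TFAM are lower on all manassantin arrays, HIF1A overlaps between the groups, and the other 11 genes are higher on all of them.

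Some targets of the hypoxia-inducible factors rose with manassantin while the factors' own mRNAs did not pass the test. Across 3 lists, 53 targets were measured; 10 were called higher and 0 lower, against 0.853% and 0.117% of all genes. The difference lay above 0 in 48 of the 53, as it did in 52.5% of all genes, and the median was 0.14 against 0.01. At an unadjusted p under 0.05, 23 targets were higher and 1 was lower, against 10.3% and 5.52% of all genes. The 10 calls became 0 with only the 6 arrays of the comparison. Without any 1 array they became 0, except for 2 without manassantin replicate 2.

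Among the regulators, 0 of 18 genes was called by limma; at an unadjusted p under 0.05 there were 0 higher and 1 lower. HIF1A, the main oxygen-regulated subunit, read 12.09, 12.14 and 12.10 in DMSO and 12.09, 12.04 and 12.14 with manassantin. Its difference of -0.02 had a 95% interval from -0.14 to 0.10, and the groups overlapped. EPAS1 and ARNT differed by -0.15 and -0.08, with intervals from -0.32 to 0.03 and from -0.20 to 0.05. EGLN1, the main oxygen-sensing hydroxylase, differed by 0.08, and EGLN3 and VHL were dim. These are mRNA levels, and the factors are regulated mainly through protein stability, which the arrays do not read.

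Of the 19 genes for glucose uptake and glycolysis, 18 lay above 0 and 3 were called, with a median of 0.12. SLC2A3, a high-affinity glucose transporter, read 7.33, 7.22 and 7.32 in DMSO and 7.62, 7.55 and 7.58 with manassantin, a rise of 0.29. Its probe set is of a kind that can share sequence with relatives, and SLC2A14 is a near-identical copy; the other probe sets read 0.47 and 0.16. ENO2, a glycolytic enolase, rose by 0.27, from 8.80, 8.79 and 8.78 to 9.02, 9.04 and 9.11. HK2, the hexokinase that traps glucose in the cell, rose by 0.26 (adjusted p = 0.0465 from limma), while its other, dim, probe set read 0.03. In these genes no manassantin array fell within the range of DMSO.

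The collagen-modifying targets had the highest median of the 3 lists, 0.27 over 6 genes, and all 6 lay above 0. P4HA1, a catalytic subunit of collagen prolyl hydroxylase, went from 8.98, 9.03 and 9.06 to 9.35, 9.30 and 9.41, a rise of 0.33 ± 0.049 (SE, n = 3 and 3; adjusted p = 0.0178 from limma). LOX, which crosslinks collagen, went from 8.98, 8.96 and 8.88 to 9.36, 9.21 and 9.38, a rise of 0.38 ± 0.075 (adjusted p = 0.0421 from limma). Both were called, and neither overlapped. PLOD2 and P4HA2, a lysyl hydroxylase and a second prolyl hydroxylase subunit, were 0.29 and 0.26 higher with adjusted p of 0.0708 and 0.0808 in limma.

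Of the 28 targets for signalling, survival and chromatin, 24 lay above 0 and 5 were called. NDRG1, a stress-response gene long used as a hypoxia marker, went from 10.07, 9.88 and 9.86 to 10.51, 10.24 and 10.28, a rise of 0.41. BNIP3L, a mitophagy receptor, went from 10.06, 10.05 and 10.07 to 10.44, 10.24 and 10.46, a rise of 0.32, and its other probe set read 0.43. INSIG2, an endoplasmic reticulum protein that holds back cholesterol synthesis, went from 7.92, 7.90 and 7.92 to 8.27, 8.17 and 8.22. In all 3 every manassantin array was above every DMSO array. KDM4B, an oxygen-dependent histone demethylase, rose by 0.23, and PLAUR, the urokinase receptor, by 0.24. VEGFA, the angiogenic factor best known as a hypoxia target, went from 9.87, 9.91 and 9.84 to 10.27, 10.12 and 10.18. Its difference of 0.32 had an adjusted p of 0.0544 in limma and its other probe sets read 0.17, -0.10 and 0.09.

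Outside the lists, SPAG4 and HILPDA, which are tied to the same biology, were picked from the genes called higher. They add nothing to the counts of the lists. SPAG4, a nuclear envelope protein also known as a hypoxia target, went from 6.44, 6.36 and 6.31 to 6.97, 6.84 and 6.81. It rose by 0.51 ± 0.059 (SE, n = 3 and 3; adjusted p = 0.00544 from limma). HILPDA, a hypoxia-induced lipid droplet protein, rose by 0.24 (adjusted p = 0.0399 from limma) and is named here after its values were seen.

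**Figure D3:**
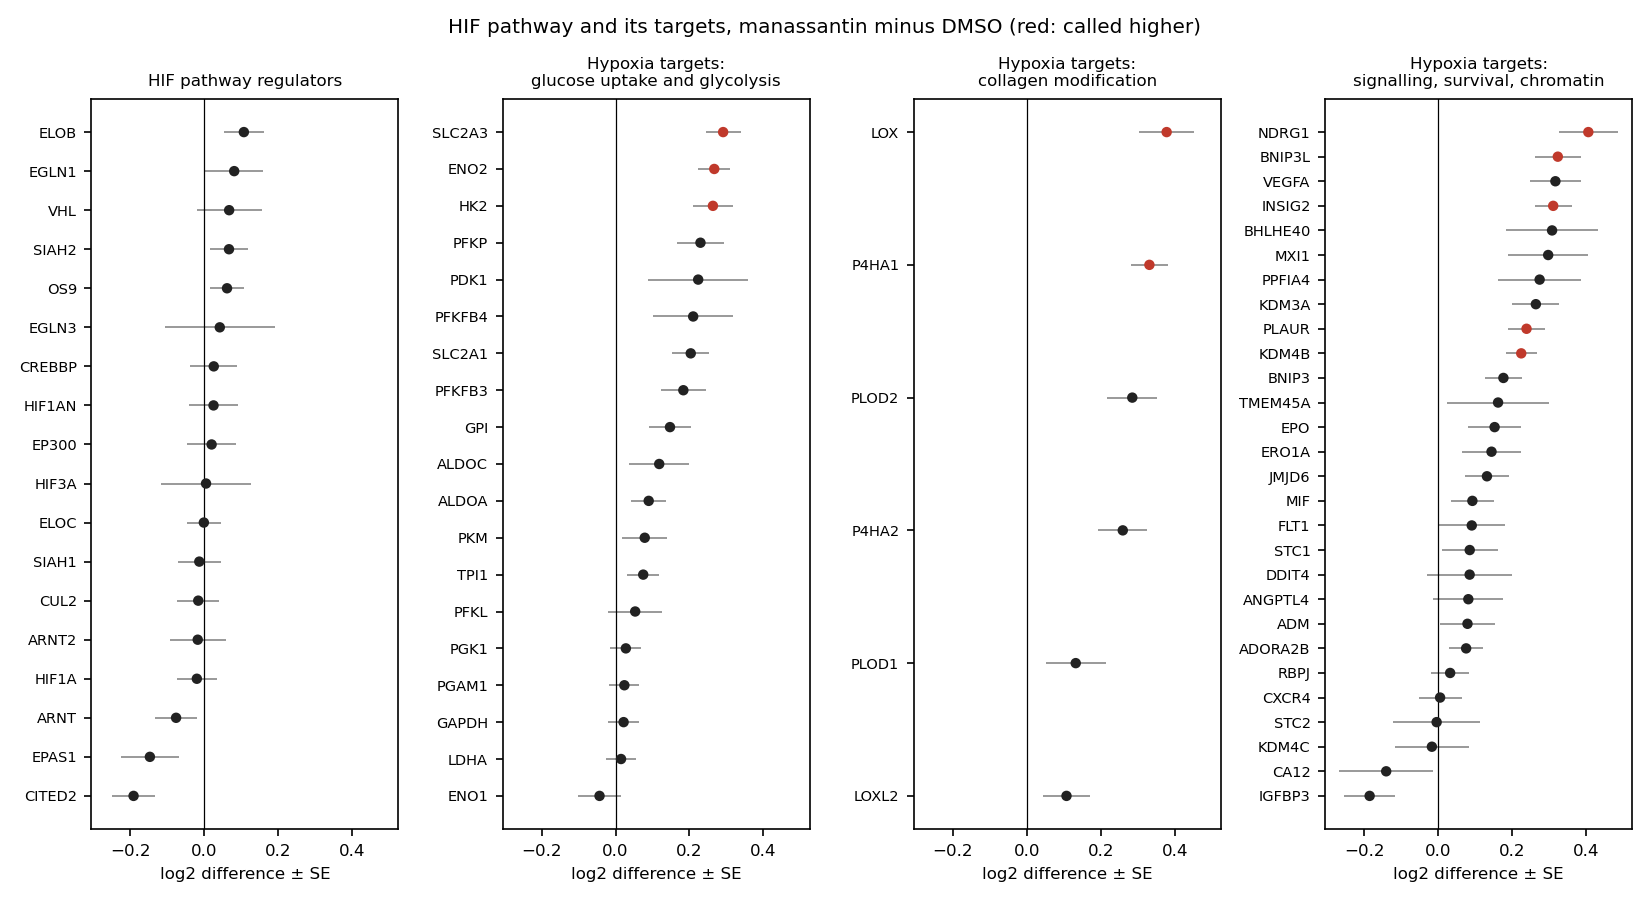
Log2 difference, manassantin minus DMSO, with its standard error for each measured gene of the HIF pathway regulators and of the 3 lists of hypoxia targets; red marks genes called higher. The regulators lie on both sides of 0 (10 above, 8 below), and 48 of the 53 targets lie above it.

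P4HA1 (chr10:73096867-73097116, minus strand) and LOX (chr5:122078260-122078509, minus strand) are the called collagen genes, and their promoters hold matches to the ACGTG core. Binding of hypoxia-inducible factors to these matches was not measured. Capitals mark ACGTG, or CACGT for the opposite strand. P4HA1 has 1, on the opposite strand 86 to 82 bases before the start. LOX has 4, of which the nearest lies 42 to 38 bases before the start and the farthest at 185 to 181.
P4HA1: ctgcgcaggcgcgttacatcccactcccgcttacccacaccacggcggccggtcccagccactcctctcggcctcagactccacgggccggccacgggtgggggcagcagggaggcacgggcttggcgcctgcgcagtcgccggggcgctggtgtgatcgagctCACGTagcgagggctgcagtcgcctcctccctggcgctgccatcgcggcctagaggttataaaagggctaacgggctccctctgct
LOX: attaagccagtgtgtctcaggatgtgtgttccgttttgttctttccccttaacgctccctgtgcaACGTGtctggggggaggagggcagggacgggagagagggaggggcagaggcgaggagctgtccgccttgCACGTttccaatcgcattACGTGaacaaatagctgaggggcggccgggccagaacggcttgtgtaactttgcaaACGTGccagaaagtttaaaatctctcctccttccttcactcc

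ACGTG on either strand occurred in 21.7% of the 9563 promoters of tested genes, in 20 of the 46 promoters of measured hypoxia targets and in 6 of the 7 of the called ones. The called targets NDRG1, BNIP3L and SLC2A3 have no promoter in the table. The lists hold known targets of factors that bind this core, so the share among them is no result of these data. It occurred in 37.5% of the 80 promoters of genes called higher and in 7 of the 14 of genes called lower. The median GC content was 63.6% over all tested genes, 67.2% in those called higher and 69.2% in those called lower, and its part in these shares was not tested. GCGTG occurred in 42.5% of the promoters of genes called higher against 41.7% of all. Both cores contain CG, and CACGTG, which 8.34% of the promoters hold, contains ACGTG.

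Genes of matrix breakdown and adhesion were among the largest rises. MMP1, an interstitial collagenase, read 7.64, 7.68 and 7.87 in DMSO and 8.29, 8.76 and 8.50 with manassantin. The rise of 0.78 ± 0.12 (SE, n = 3 and 3; adjusted p = 0.0178 from limma) was the largest of all 102, and MMP1 was the 1 gene called of 17 metalloproteinases and their inhibitors. PLAT, tissue plasminogen activator, went from 9.56, 9.56 and 9.47 to 10.08, 9.88 and 10.02, a rise of 0.46. With PLAUR it made 2 called of 8 plasminogen activators and serpins, all 8 of which lay above 0, with a median of 0.10. ITGA5, the alpha subunit of the fibronectin receptor, went from 8.29, 8.13 and 8.09 to 8.65, 8.68 and 8.50, a rise of 0.44 and the 1 call of 22 integrin subunits. ITGB4, a laminin receptor subunit, was 0.40 higher with an adjusted p of 0.0519 in limma, while its other probe sets read 0.11, -0.10 and -0.05. The 28 mesenchymal and matrix genes gave 0 calls in limma (at an unadjusted p under 0.05, 1 higher) and a median of 0.00. THBS1, a matrix protein of this list, was at -0.14, and its other probe sets read -0.40, -0.03, 0.09 and -0.06. The probe set at -0.40, which is bright, passed in a separate fit of every probe set with 1 symbol (adjusted p = 0.015, limma).

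Further large rises fell outside these lists. SCG5, a chaperone of prohormone convertase 2, went from 6.78, 6.70 and 6.77 to 7.35, 7.39 and 7.35, a rise of 0.61 ± 0.076 (SE, n = 3 and 3; adjusted p = 0.00727 from limma). CLMN, a calponin-like transmembrane protein, rose by 0.56, while its other probe set read 0.07. DENND1A, an exchange factor for RAB35, rose by 0.44 and CDA, which deaminates cytidine, by 0.38. VIPR1, ICAM4, TCEA2, MPI, B4GAT1, TMC6 and EEF1A2 rose by between 0.38 and 0.45, ICAM4 from a dim level. The remaining 82 called rises lay between 0.20 and 0.38.

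TUBA1A, an alpha tubulin, went from 10.22, 10.02 and 10.04 to 10.55, 10.44 and 10.43, a rise of 0.38 (adjusted p = 0.0189 from limma). All 14 measured tubulins lay above 0, as did 52.5% of all genes, with a median of 0.12, and TUBA1A was the 1 called. Tubulin genes are near-identical in their coding parts, and their probe sets may not be separate.

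Immediate early genes gave 2 calls of 28, both higher, against 0.853% of all genes. IER3, an early survival gene, rose by 0.34 and FOSL2, an AP-1 subunit, by 0.30, while the other FOSL2 probe sets read 0.10 and 0.02. HTRA2, an intermembrane protease released in apoptosis, rose by 0.29. It was the 1 call of 15 mitochondrial chaperones and proteases, against the same share of all genes.

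The 14 falls held a few known regulators. ID2, an inhibitor of basic helix-loop-helix factors and a target of BMP signals, went from 6.79, 6.81 and 6.71 to 6.46, 6.20 and 6.35. It fell by 0.43 log2 units (SE 0.080, n = 3 and 3; adjusted p = 0.033 from limma), and its other probe set read -0.35. SMAD4, the shared effector of TGF-beta and BMP signals, went from 7.91, 7.84 and 7.81 to 7.64, 7.40 and 7.53, a difference of -0.33 (adjusted p = 0.0306 from limma), but its second, dim, probe set read 0.00. These were the 2 calls of 27 ID, TGF-beta and BMP genes, against 0.117% of all genes called lower. Of the 27, 21 lay below 0, as did 47.5% of all genes, with a median of -0.05. ID1 and ID3 differed by -0.05 and -0.06.

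TFAM, which packages and transcribes mitochondrial DNA, went from 9.35, 9.33 and 9.46 to 9.09, 9.02 and 9.11. It fell by 0.31 (adjusted p = 0.0258 from limma), and its other probe sets read -0.20 and -0.27. HADHA, the alpha subunit of the trifunctional enzyme of fatty acid oxidation, fell by 0.22, and its other probe sets read -0.14 and -0.11. The subunits of the respiratory chain were not called. Of 28 complex I genes limma called 0, with 3 higher and 0 lower at an unadjusted p under 0.05 and a median of 0.03. Complexes II to V gave 0 of 35 calls in limma, 6 higher and 0 lower at an unadjusted p under 0.05, and a median of 0.04. Over all genes 10.3% were higher and 5.52% lower at that level.

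NFKB1, the p50 precursor of NF-kB, went from 7.97, 7.90 and 7.99 to 7.57, 7.68 and 7.66, a fall of 0.32 and the 1 call of 22 genes in its list. Most of that list ran the other way, with 17 of 22 above 0, against 52.5% of all genes, and a median of 0.10. HNRNPM, a splicing regulator, fell by 0.32, with a second, dim, probe set at 0.14. TAF4B, FAM13B, ZNF334, TRIM52, TMEM260 and RAB11FIP3 completed the 14 falls at between -0.44 and -0.23, and TAF4B, ZNF334, TRIM52 and TMEM260 were dim.

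The mRNAs of Hsp90 and of the chaperone-mediated autophagy list, which the series title names, gave no call. HSP90AA1, the inducible cytosolic Hsp90, read 12.80, 12.84 and 12.92 in DMSO and 12.83, 12.75 and 12.84 with manassantin. Its difference of -0.05 had a 95% interval from -0.16 to 0.06, that of HSP90AB1 was -0.04 (from -0.13 to 0.06), and that of LAMP2 was 0.08 (from -0.08 to 0.24). HSP90AA1 and LAMP2 overlapped between the groups. HSF1, the heat shock factor, differed by 0.15 and CDC37, the Hsp90 partner for kinases, by 0.08. The other LAMP2 probe sets read -0.10 and 0.10, and which LAMP2 isoforms each reads was not analysed here.

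Of 21 heat shock genes and co-chaperones limma called 0, with 2 higher and 2 lower at an unadjusted p under 0.05. CHORDC1, an Hsp90 co-chaperone, was 0.32 lower (adjusted p = 0.0751) and HSPB1, a small heat shock protein, 0.25 higher (adjusted p = 0.0802, both limma). Of 17 chaperone-mediated autophagy genes 0 were called, with 1 higher and 2 lower at an unadjusted p under 0.05 and a median of -0.03. The macroautophagy list gave 0 calls among 29 genes, with 7 higher and 1 lower. The 33 lysosomal genes also gave 0 calls in limma, but 30 lay above 0 and the median was 0.08. At an unadjusted p under 0.05, 10 were higher and 0 lower. Over all genes 52.5% lay above 0, and 10.3% were higher and 5.52% lower at that level. Outside these lists, and named after their values were seen, ATG2A, a lipid transfer protein of autophagosome growth, rose by 0.23, TCIRG1, a subunit of the proton pump, by 0.35 and LAMTOR2, part of the lysosomal Ragulator complex, by 0.32 (adjusted p = 0.0376, 0.0258 and 0.0475 in limma).

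Genes of mitosis leaned lower without any call. Of 37 G2/M genes 33 lay below 0, with a median of -0.12, and at an unadjusted p under 0.05 limma gave 19 lower and 0 higher, against 5.52% and 10.3% of all genes. DLGAP5, a spindle assembly factor, went from 10.31, 10.39 and 10.33 to 10.10, 10.05 and 10.06, and CENPE, a kinetochore motor, from 9.30, 9.41 and 9.37 to 9.05, 8.89 and 9.03. Both were separated from DMSO, with adjusted p of 0.0507 and 0.0673 in limma. When the dim genes were left out or a trended prior was used, 11 of the 37 were called lower. Those fits called more genes lower in all, 119 of 7178 without the dim genes and 142 of 11963 with the trended prior. In RNA from bulk cultures, fewer cells in a phase and less RNA per cell cannot be told apart. The 37 G1/S genes gave 0 calls in limma, with 3 higher and 3 lower at an unadjusted p under 0.05 and a median of -0.02.

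Other stress lists gave 0 calls in limma. Over all genes, 10.3% were higher and 5.52% lower at an unadjusted p under 0.05. ATF4 targets, 30 genes that answer amino acid and mitochondrial stress, had a median of 0.03, with 2 higher and 4 lower at an unadjusted p under 0.05. The median was -0.04 over 21 genes of endoplasmic reticulum stress, -0.02 over 18 NRF2 targets and 0.05 over 29 interferon-stimulated genes. It was 0.05 over 17 genes of cholesterol synthesis, -0.04 over 18 of ribosome biogenesis and -0.00 over 33 of the proteasome. At an unadjusted p under 0.05, the endoplasmic reticulum list had 2 higher and 4 lower, the NRF2 list 5 and 1, the interferon list 5 and 0, cholesterol synthesis 5 and 0, ribosome biogenesis 0 and 3, and the proteasome 3 and 1. The cyclins and CDK inhibitors of G1 (16 genes, 1 higher and 2 lower at that level) and the EGFR family with its ligands (10 genes, 3 and 0) also gave 0 calls, with medians of 0.02 and 0.06. Of 16 BCL2 family genes, BNIP3L alone was called.

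**Figure D4:**
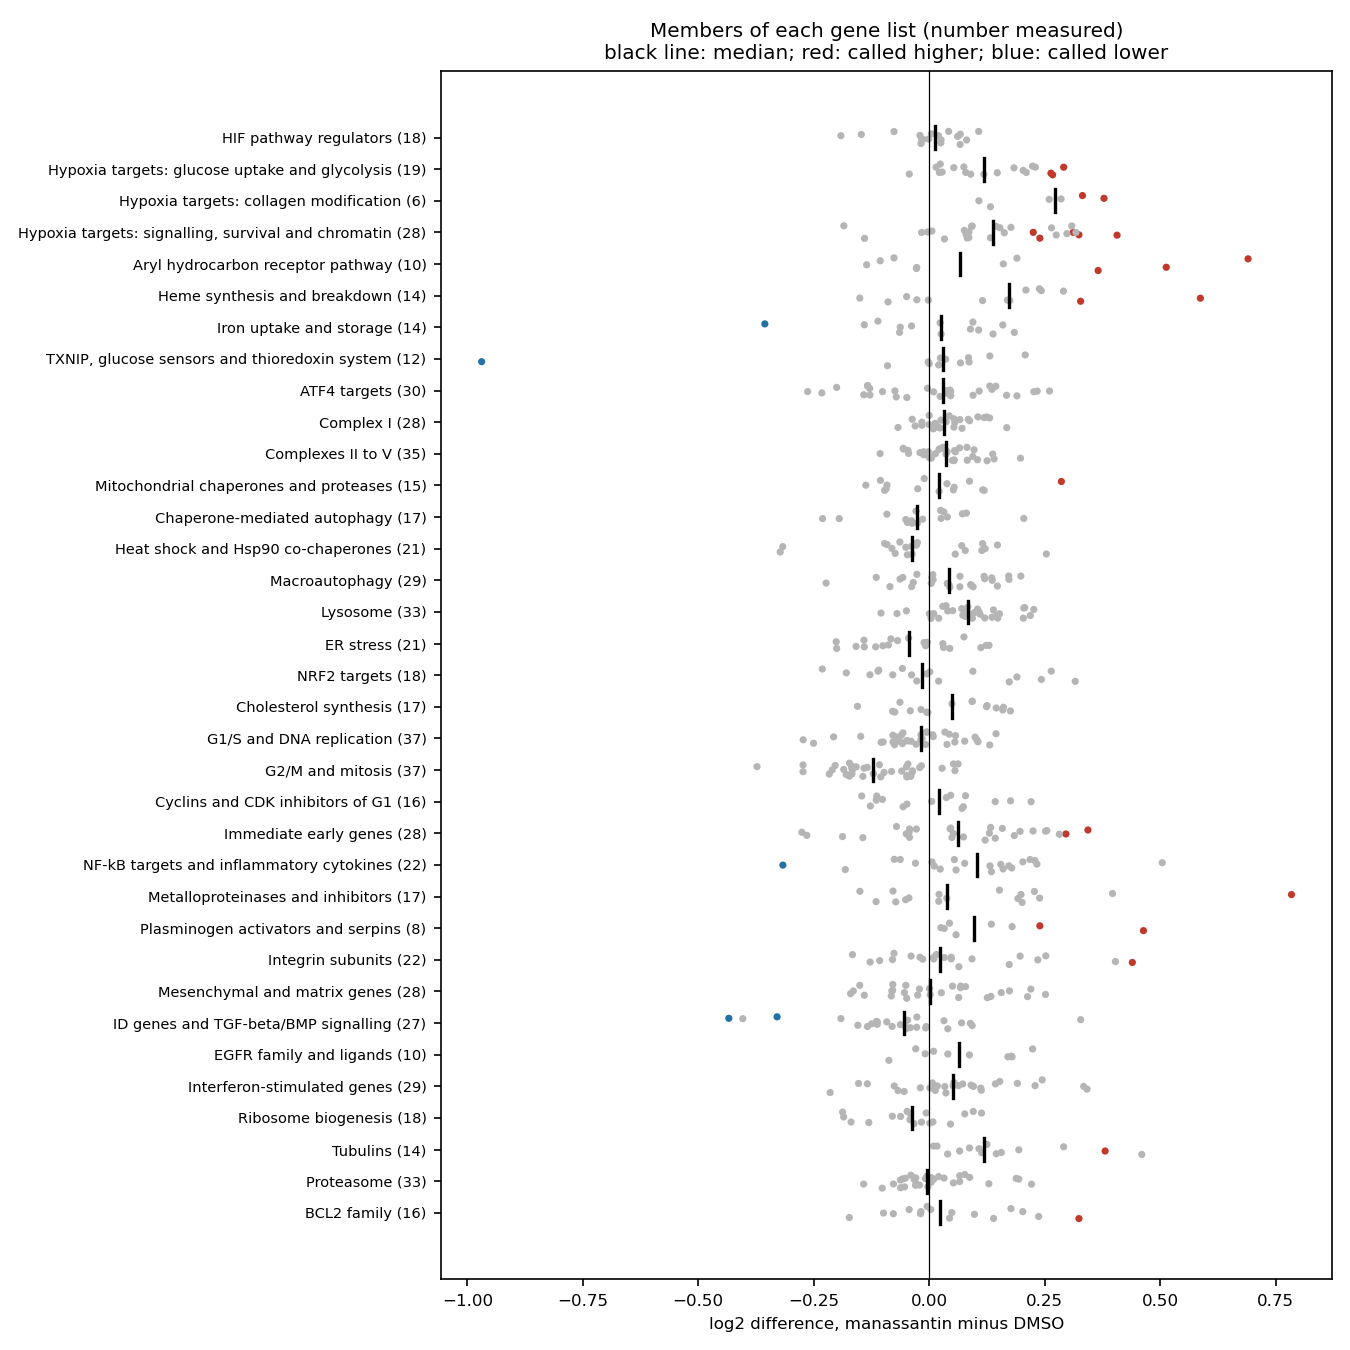
Each point is 1 measured gene of a list, placed by its log2 difference, manassantin minus DMSO; black lines are medians, red points are called higher and blue points called lower. The collagen list has the highest median (0.27) and the G2/M list the lowest (-0.12).

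Rotenone was set beside manassantin in the same fit. Each comparison with DMSO uses the same 3 DMSO arrays, so their values are not independent, and the direct contrast of manassantin with rotenone is the test of a difference. Of the 116 called genes, 57 differed between manassantin and rotenone at an adjusted p under 0.05 (limma), as did 1013 of all 11963 genes, or 8.47%. The genes were chosen by the DMSO contrast, which shares the manassantin arrays with this one.

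For TXNIP, ALAS1, CYP1A1 and MMP1 the direct difference did not pass the test. TXNIP was -0.97 with manassantin and -1.002 with rotenone, and the direct difference of 0.03 had an interval from -0.08 to 0.15. ALAS1 was 0.59 and 0.53, with a direct difference of 0.06 (from -0.05 to 0.17). CYP1A1 was 0.69 and 0.88, with a direct difference of -0.19 (from -0.42 to 0.03), and MMP1 was 0.78 and 1.03, with a direct difference of -0.25 (from -0.51 to 0.01). The intervals of TXNIP and ALAS1 are narrow, and those of CYP1A1 and MMP1 reach well below 0.

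Of the 10 called hypoxia targets, 4 differed from rotenone, all higher with manassantin, and 6 did not pass. ENO2 was 0.27 with manassantin and -0.03 with rotenone, a direct difference of 0.30 (from 0.20 to 0.39; adjusted p = 0.00188 in limma). INSIG2 was 0.31 and -0.01, BNIP3L 0.32 and 0.01, and P4HA1 0.33 and 0.08, with direct differences of 0.32, 0.31 and 0.25 that passed. Of the 6, NDRG1, LOX and KDM4B were higher with manassantin by 0.28, 0.15 and 0.11 (adjusted p = 0.052, 0.249 and 0.134 in limma). SLC2A3 and HK2 differed by -0.02 (from -0.12 to 0.09) and 0.03 (from -0.09 to 0.15). PLAUR ran the other way, at 0.24 with manassantin and 0.40 with rotenone, a direct difference of -0.16 (adjusted p = 0.0731 in limma). Outside the lists, SPAG4 was 0.51 and 0.11, a direct difference of 0.40 that passed. CYP1B1 was higher with manassantin by 0.25 (adjusted p = 0.0133), and TUBA1A by 0.56 (adjusted p = 0.000439, both limma).

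ID2 went opposite ways. It was -0.43 with manassantin and 0.65 with rotenone against DMSO, and the direct difference was -1.09, with an interval from -1.26 to -0.91 (adjusted p = 2.44e-05 in limma). FOSL2, IER3 and SCG5 rose under manassantin but lay below rotenone, by 0.34, 0.22 and 0.30 log2 units.

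Called genes were brighter than genes at large. Their mean levels had a median of 8.14 log2 units when higher and 7.86 when lower, against 6.58 for all genes. Their standard errors had a median of 0.054 and 0.057 against 0.074, which the choice by test favours. The genomic span had a median of 16.2 kb for genes called higher, 52.6 kb for those lower and 28.9 kb over all. Of the called genes 42 have other probe sets, 62 in all, of which 56 moved in the same direction and 28 did so with an unadjusted p under 0.05 from limma. Probe sets of a gene read the same RNA on the same arrays, and the matching share over all genes is not given here.

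The array controls were read beside these results. The 18S ribosomal control, the mean of its 3 probe sets, read 10.36, 10.10 and 10.73 in DMSO and 9.62, 9.49 and 10.38 with manassantin, a difference of -0.56 (exact two-sided permutation p = 0.3). The gap between 3 prime and 5 prime probe sets was 0.58 larger for the spiked dap transcript (exact p = 0.2) and 0.39 larger for thr (exact p = 0.3). For GAPDH and ACTB the gap differed by 0.01 and 0.15 (exact p = 0.8 and 0.5). With 3 arrays against 3, this exact test cannot go below 0.1. The part of the 3 prime gap in the calls was not tested. With the 18S control as a covariate, 3 genes were called, TXNIP at -0.98, CYP1B1 at 0.57 and ALAS1 at 0.56. The list medians were then 0.07 for glucose uptake and glycolysis, 0.30 for collagen modification and -0.10 for G2/M.

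**Figure D5:**
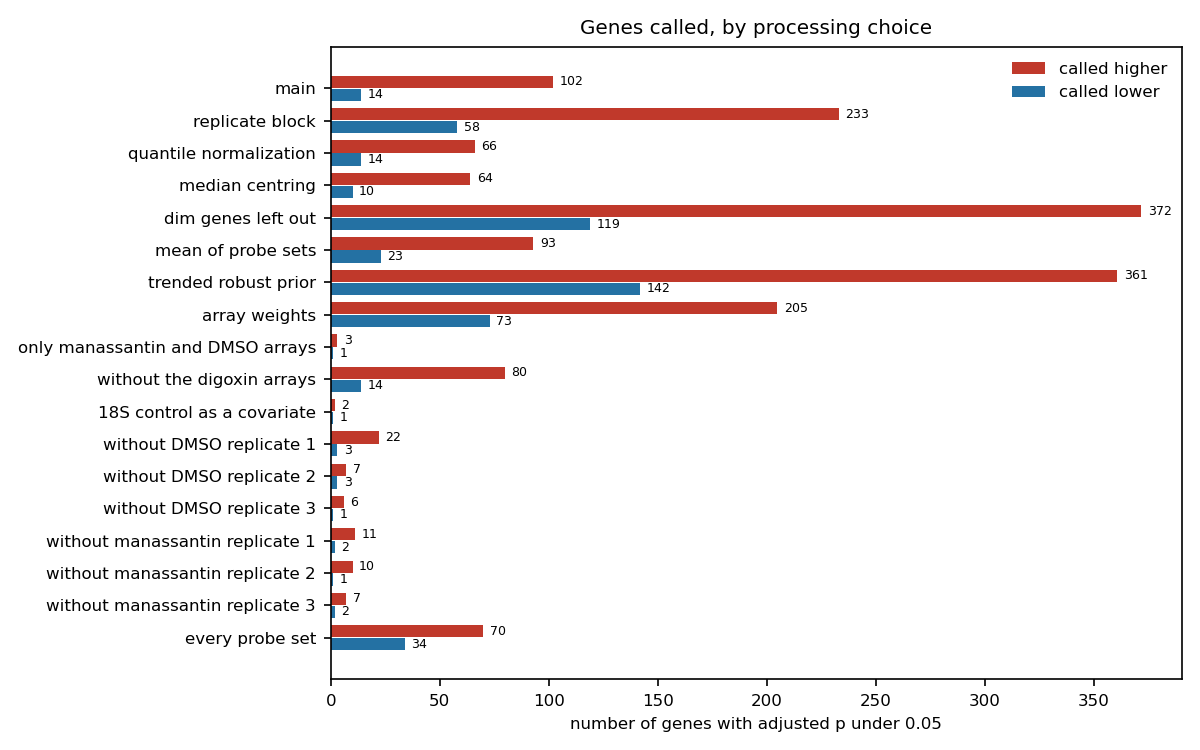
Number of genes with an adjusted p under 0.05, called higher (red) and called lower (blue), for the main fit and for each other processing choice. The total runs from 3 genes with the 18S control as a covariate to 503 with a trended robust prior, and every choice gave more genes higher than lower.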

How the data were processed

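RNA was extracted, amplified, biotin-labelled and hybridised to Affymetrix arrays, per the labels' protocols. The deposited log2 values of the authors' value table were used as they stand; no label or header states how they were summarised, background-corrected or scaled. The table holds 22277 probe sets, of which 62 controls, 1043 with several symbols and 2108 with none were left out of the gene fit. GEO's platform annotation named the 19064 others, and 19052 matched a current RefSeq record. The brightest probe set stood for a gene. limma 3.58.1 in R 4.3.3 (lmFit and eBayes, group only, all 12 arrays, 8 residual and 3.68 prior degrees of freedom) gave differences, standard errors and 95% intervals, with Benjamini-Hochberg adjustment over 11963 genes; the script was tested on simulated data. Array values carry no read depth, and the number of arrays limits the precision. Named genes are the 20 largest called rises, all called falls, called list members, up to 4 further members a list by smallest p, and a set written down by name. The members and lists were chosen with earlier results of these data known. Gene lists carry no test of their own. The alternatives were other scalings, probe rules, priors, weights, array sets, an 18S covariate and a replicate block. Replicate numbers showed no pairing over the genes as a whole and were not used as pairs in the main fit.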

Additional observations from a re-analysis of the deposited data

Results flagged for a closer look

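In a fit over all probe sets other than controls, 4 probe sets with no gene symbol in the platform annotation were higher with manassantin at an adjusted p under 0.05 (limma). They lie outside the gene comparison, which needs exactly 1 symbol. They rose by between 0.26 and 0.48 log2 units. Another 2 without a symbol were lower, at -0.31 and -0.44. Of the probe sets with several symbols, 0 were called higher and 2 lower in the same fit.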

How the results depend on the processing

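The 116 calls (102 higher, 14 lower, 10 hypoxia targets) kept their direction under every alternative that tested them, and 109 of them were tested with dim genes dropped. In fits that left out or reweighted arrays, the kept direction was fixed in advance by the separation of the arrays. The other prior, the replicate block and the dropping of dim genes leave each difference itself unchanged, so direction was fixed there too. Only the scalings, the mean of probe sets and the 18S covariate could have reversed a direction. The number of calls moved widely. Totals were 503 with a trended robust prior, 291 with a replicate block, 491 once the dim genes were dropped, 278 with array weights, 74 with median centring, 4 with only the 6 arrays of the comparison and 3 with the 18S covariate. Genes called higher were then 361, 233, 372, 205, 64, 3 and 2, and 66 with quantile normalization. Genes called lower were 58 with the block, 73 with weights, 119 with dim genes dropped, 142 with the trended prior, 23 with the mean of probe sets and 1 each with the 6 arrays and the 18S covariate. Counting probe sets and not genes, a fit of the 19064 with 1 symbol called 70 higher and 34 lower. Hypoxia targets called were 16 with the block, 17 with dim genes dropped, 17 with the trended prior, 6 over every probe set, 6 without the digoxin arrays, and 0 with the 6 arrays or the 18S covariate. Left out one at a time, DMSO replicates 1, 2 and 3 left 25, 10 and 7 genes and manassantin replicates 1, 2 and 3 left 13, 11 and 9; these held 6 to 22 higher and 1 to 3 lower, with 0 to 2 hypoxia targets. Fewer arrays or genes tested account by construction for part of this, and otherwise the cause was not tested. VEGFA passed under 4 of the 10 alternatives that keep all 6 arrays. Same-numbered DMSO and manassantin arrays deviated together with correlations of -0.03, 0.08 and 0.03, which showed no pairing over the genes as a whole. The 18S control had the same order of replicates in both groups, highest in replicate 3 and lowest in replicate 2. The gaps between 3 prime and 5 prime probe sets were smallest in replicate 1 of both groups for dap, thr, GAPDH and ACTB. Whether same-numbered arrays were handled together was not tested, and the replicate block is given only here. Signal limits dim genes: 7 of the 116 calls are in the dimmest 40 percent.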
